A study of Mus musculus with 74 samples.

Results

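Crush of the sciatic nerve and injury of the spinal cord were compared directly, 1 day later, in sorted sensory neurons of the mouse. Sciatic nerve crush (SNI) damages the peripheral axon, and a dorsal hemisection of the spinal cord at T9/10 (SCI) damages the central axon. The comparison took the sorted neuron libraries labelled SNI at day 1 and SCI at day 1, chosen by their titles, which are 24 of the 74 libraries of the series and come from 8 of its 22 sorted mice. Each mouse gave 3 wells, which were added up so that the mouse was the replicate, giving 4 SNI mice against 4 SCI mice. The other sorted mice were 6 naive mice and 4 mice of each injury at day 3, and the series also held 8 whole DRG libraries, not analysed here. The naive group pools controls titled for day 1 (naive mice 1, 2 and 5) and for day 3 (naive mice 3, 4 and 6). Of these, 4 belong to the first of 2 sets of mice described below and 2 to the second. All sorted mice were female, 10-20 weeks old and of the strain given as Thy1YFP16, in which a YFP transgene under the Thy1 promoter marks neurons. The separate genotype label counts up from well to well (Thy1YFP40 and the like) and was not used. L4 DRG were dissociated with papain and collagenase, and YFP+ cells were sorted at about 100 to a well, so the data describe YFP-positive neurons that survived dissociation, whether or not their own axon had been cut.

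A DRG neuron sends 1 axon branch into the peripheral nerve and 1 into the spinal cord. Cutting the peripheral branch is known to switch on a growth programme led by transcription factors such as Atf3, Jun, Sox11 and Klf6, and the peripheral branch can regrow. Cutting the central branch is known to give a weaker response and little regrowth. The comparison asks in which genes the response of the neuron differs with the site of injury.

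Wells differed in what they held. In 6 of the 24 wells, 3 of 12 in each group, reads on 9 glia genes (myelin and satellite glia genes such as Mbp and Fabp7) outnumbered reads on 9 neuron genes (such as Uchl1, Snap25 and Nefl), so these wells went against their label as neurons. Neuron genes took 0.0197% to 0.135% of gene reads in those 6 wells and 1.39% to 3.99% in the other 18. Glia genes took 6.48% to 12.4% and 0.195% to 1.20%. They are called glia-rich below. Counts of called genes and medians of gene lists are given with and without them, and most single genes without them only. Of the 18 naive wells 6 were also glia-rich, and without these naive mice 5 and 6 kept 1 well each. The well left of naive mouse 5 had 4.16% of gene reads on nociceptor markers and 1.09% on the neuron genes. Naive ranges and comparisons with naive mice below include these 2 mice. The wells held 1494217 to 29584708 reads on genes, and the mice held 30518187 to 79826087 reads on tested genes with all wells and 29784623 to 63688434 without the glia-rich wells. Levels are given as CPM, read counts scaled to the size of each library with TMM factors.

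**Figure D1:**
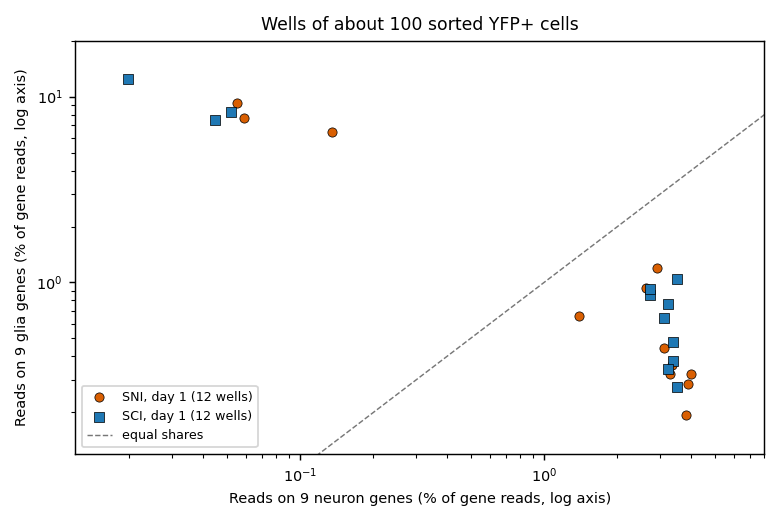
Share of gene reads on 9 neuron genes (horizontal axis, percent, log scale) and on 9 glia genes (vertical axis, percent, log scale) in each day 1 well, with orange circles for SNI and blue squares for SCI. The 6 wells at the upper left, 3 from each injury, lie above the dashed line of equal shares, and the other 18 lie below it.

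The direct comparison depended on these wells. With all wells, edgeR's quasi-likelihood test over 23507 genes called no gene at an adjusted p under 0.1 in either direction (0% of genes), with the lowest adjusted p at 0.116, for Plin4. At an unadjusted p under 0.05, 2408 genes passed, 5.79% of genes higher after SNI and 4.45% higher after SCI. DESeq2 with the same factors called 1109. Without the glia-rich wells, 201 of 22620 genes passed in edgeR. Of these, 161 rose after SNI relative to SCI (0.712% of genes) and 40 were lower after SNI than after SCI (0.177%), while 7.48% and 5.85% of genes had an unadjusted p under 0.05 in these directions. The median fold was 2.97 for the 161 genes and 3.08 for the 40. The 4 SNI mice and the 4 SCI mice did not overlap for 144 of the 161 and 31 of the 40. Over all genes tested the groups did not overlap for 3.40% of genes on the SNI side and 2.02% on the SCI side, against 2.60% and 1.76% with all wells. All 201 genes had the same sign with all wells, where 117 of the 161 and 25 of the 40 had an unadjusted p under 0.05. They also had the same sign within each of 2 sets of mice that the titles distinguish. Mice 1 and 2 of each group form the first set and mice 3 and 4 the second. The 201 genes were picked from these same mice, so their shared signs were largely set by the picking and are no separate support. The median difference over all genes was 0.01 on the log2 scale with all wells and -0.01 without the glia-rich wells.

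The count of calls depended on how the model was fitted. The model held 2 factors of unwanted variation estimated over all sorted mice (RUVr). Without the glia-rich wells the first was largest in naive mouse 5, at 0.83, and the second in naive mouse 6, at 0.883. In the 8 mice compared they ran from -0.142 to 0.0990 and from -0.0630 to 0.0770. The first factor followed the 2 sets of mice. It was negative in every sorted mouse of the first set and positive in every one of the second. At day 1 it was -0.069 and -0.142 in SNI mice 1 and 2, and 0.096 and 0.04 in SNI mice 3 and 4. For SCI it was -0.126 and -0.1 in mice 1 and 2, and 0.074 and 0.099 in mice 3 and 4. What else the factors stand for was not tested. Without the factors no gene passed (lowest adjusted p 0.107, with 2223 genes at an unadjusted p under 0.05 in edgeR). The 8 mice fitted alone gave 67 calls, 53 of them among the 201. DESeq2 with the same factors called 1483 genes, keeping every gene with at least 1 read gave 84 calls, the set of mice in place of the factors gave 13, and an adjusted p under 0.05 left 69. On simulated counts the fit made few false calls where no hidden factor was present. Where genes had been changed and a hidden factor ran through many other genes, more of its calls were false than true, so a called gene here is one called given these factors. Leaving out 1 mouse at a time gave 10 calls without SCI mouse 2, 22 without SNI mouse 3, 31 without SCI mouse 3, 44 without SNI mouse 1, 81 without SNI mouse 4, 91 without SCI mouse 1, 205 without SNI mouse 2 and 233 without SCI mouse 4. Values below are without the glia-rich wells unless all wells are named. Differences are SNI minus SCI on the log2 scale, with standard errors worked back from the F statistic of the test. The gene lists below were chosen with earlier results of these data known. Their counts stand beside all-gene shares of 7.48% (SNI side) and 5.85% (SCI side) at an unadjusted p under 0.05. For groups that do not overlap the shares are 3.40% and 2.02%. Adjusted p-values are from edgeR's quasi-likelihood test over all genes tested. In bulk wells, fewer cells of a type and less RNA per cell cannot be told apart.

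Of 20 transcription factors of the regeneration programme, Klf6 and Sox11 passed the adjusted test, both higher after SNI, and with all wells none passed. A positive difference was found in 17 of the 20, or 85.0%, against 48.6% of all genes tested, and in all 10 that had an unadjusted p under 0.05. The median difference was 0.97 both with and without the glia-rich wells, against -0.01 over all genes. Klf6, a zinc finger factor of axon growth, was at 375, 213, 549 and 376 CPM in SNI mice 1 to 4 and at 65.3, 55.9, 186 and 152 CPM in SCI mice 1 to 4. The lowest SNI mouse lay above the highest SCI mouse, and the naive mice spanned 52.3 to 709 CPM around a median of 77.5. The difference was 1.82 ± 0.28 (adjusted p = 0.0166). With all wells the groups overlapped and it was 0.90 ± 0.52 (adjusted p = 0.56). Sox11, a developmental factor re-expressed after axotomy, was at 1349, 897, 1769.6 and 483 CPM after SNI and at 129, 185, 45.9 and 153 CPM after SCI, with a naive median of 66.8. Each SNI mouse lay above each SCI mouse. The difference was 3.10 ± 0.60 (adjusted p = 0.0416), and 3.14 ± 0.91 with all wells (adjusted p = 0.45).

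Atf3, the classical marker of an axotomised neuron, did not pass. It was at 1099.5, 754, 1814 and 1336 CPM after SNI and at 119, 82.3, 22.4 and 334 CPM after SCI. The groups did not overlap and the mean after SNI was 8.96 times that after SCI, with a wide spread among the SCI mice. The difference was 3.20 ± 0.82 (adjusted p = 0.11; 0.45 with all wells). Against naive mice, at a median of 66.0 CPM, Atf3 rose after SNI (3.77 on the log2 scale, adjusted p = 0.0116), and the SCI difference from naive was 0.57 (adjusted p = 0.73). These 2 comparisons share their naive mice. Jun, which encodes the AP-1 subunit c-Jun, was at 169, 176, 136 and 101 CPM after SNI and 103, 88.2, 41.7 and 71.5 CPM after SCI. The highest SCI mouse just passed the lowest SNI mouse, and the difference was 0.95 ± 0.30 (adjusted p = 0.22). Klf7 differed by 1.07 ± 0.30 (adjusted p = 0.15), Stat3 by 0.66 ± 0.20 (adjusted p = 0.19), Hif1a by 1.06 ± 0.35 (adjusted p = 0.24) and Smad1, which carries BMP signals, by 0.97 ± 0.31 (adjusted p = 0.22). Creb1, the cAMP response factor, showed no call and no fixed direction, with differences of 0.30 ± 0.44 here and -0.13 ± 0.70 with all wells.

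**Figure D2:**
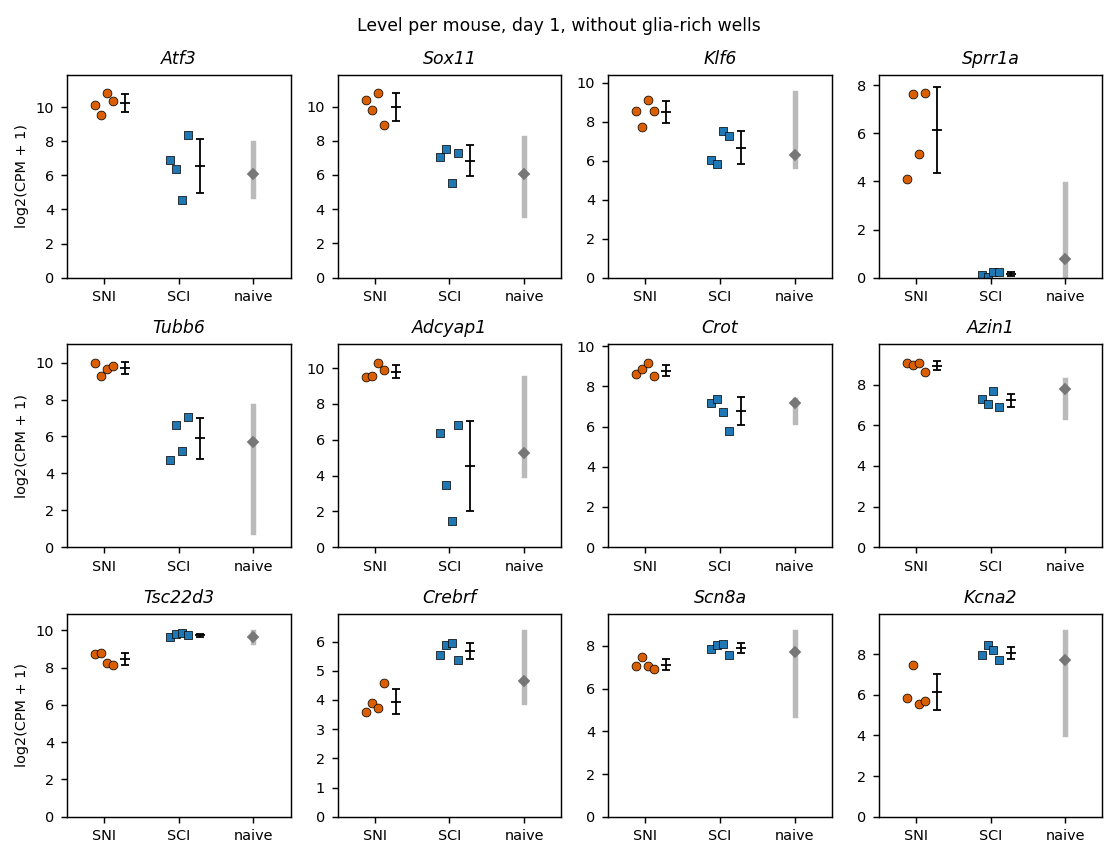
Level of 12 genes at day 1 as log2(CPM + 1) without the glia-rich wells, with 1 point per mouse (orange circles, 4 SNI mice; blue squares, 4 SCI mice), the mean with SD as a bar beside each group, and the naive mice as a grey median and range. The SNI points lie above the SCI points in the first 8 panels and below them in the last 4, and Sprr1a sits near 0 in the 4 SCI mice.

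Of 29 genes known as effectors of axotomy, Sprr1a passed, higher after SNI, and with all wells none passed. A positive difference was found in 27 of the 29 (93.1%, against 48.6% of all genes). The 27 include Vip, Lif and Cckbr, which had no read in any SCI mouse. These 3 could pass the read filter only through other mice, so their direction is no support. They also count in the median given below. An unadjusted p under 0.05 was found in 14 and not in 15 (7.48% of all genes on the SNI side). In 12 each SNI mouse lay above each SCI mouse (3.40% of all genes). The median difference of the 29 was 2.68, and 2.80 with all wells. Sprr1a, a small proline-rich protein of growing axons, was at 16.2, 198, 34.2 and 203 CPM after SNI and at 0.0932, 0.0310, 0.178 and 0.176 CPM after SCI. In all 4 SCI mice together it had 21 reads, against 14790 in the SNI mice. The naive mice ranged from 0 to 13.7 CPM. The difference was 9.67 ± 2.13 (adjusted p = 0.0687; 0.40 with all wells). Against naive mice it was 6.07 after SNI and -3.60 after SCI, and the second of these missed the threshold (adjusted p = 0.35).

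Further effectors were far apart between the groups without passing. Adcyap1, which encodes PACAP, was at 732, 745, 1273 and 937 CPM after SNI and 82.6, 10.3, 1.78 and 111 CPM after SCI. The SNI mice were close together and the SCI mice spread over a wide range below them. The difference was 4.11 ± 1.06 (adjusted p = 0.11). Nts, which encodes neurotensin, was at 170.5, 149, 1649 and 379 CPM against 9.29, 0.495, 1.33 and 2.74 CPM, with no overlap and a difference of 8.32 ± 2.20 (adjusted p = 0.12). Flrt3, a cell surface protein of neurite outgrowth, differed by 2.90 ± 0.88 (adjusted p = 0.19) and also did not overlap. Mmp16, a membrane-bound metalloprotease, turned on the wells used. It was at 46.0, 50.7, 40.7 and 35.5 CPM after SNI and 4.10, 1.95, 15.8 and 8.24 CPM after SCI, with a difference of 2.46 ± 0.63 (adjusted p = 0.11), but with all wells the groups overlapped and the difference was 0.39 ± 0.98.

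Most genes of the axonal cytoskeleton and growth cone lay near 0. The median of 25 was 0.14 (0.07 with all wells), and 3 had an unadjusted p under 0.05, each with a positive difference. Tubb6 and Crmp1 passed. Tubb6, a beta tubulin isotype, was at 1025, 609, 796 and 912 CPM after SNI and at 25.6, 97.5, 36 and 132 CPM after SCI. The lowest SNI mouse was well above the highest SCI mouse, and the naive median was 51.3. The difference was 3.32 ± 0.82 (adjusted p = 0.0981; 0.35 with all wells). Crmp1, a collapsin response mediator protein that binds tubulin, was at 107, 78.8, 139 and 108 CPM against 24.8, 36.9, 57.1 and 69.6 CPM, again without overlap, and differed by 1.25 ± 0.31 (adjusted p = 0.0929). Marcks, an actin-binding substrate of protein kinase C, differed by 2.29 ± 0.67 (adjusted p = 0.17). Reads aligned to several places were left out of the counts, so reads shared by near-identical tubulin genes are not in the Tubb6 value.

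Because Jun and Atf3 encode factors that bind AP-1 and CRE sequences, the promoter windows of a few of these genes are printed. Each runs from 250 bases before to 50 bases after a RefSeq transcription start on GRCm38.p6, in lower case, with matches to TGANTCA (AP-1) and TGACGTCA (CRE) on either strand in capitals. Both motifs are palindromes apart from N and do not overlap each other in these windows. Sprr1a, the largest effector difference, has 2 AP-1 matches, and Hspa5, a chaperone gene described further on, has 1. Rcan1, also described further on, has an AP-1 and a CRE match at an inner start. Klf6 has neither. Of 11 windows searched, 8 had no match, namely those of Klf6, Atf3, Sox11 and Crot, the outer start of Rcan1 and 3 starts of Tsc22d3, and Klf6 is printed as an example of them.
Sprr1a (chr3:92485832-92486131, minus strand): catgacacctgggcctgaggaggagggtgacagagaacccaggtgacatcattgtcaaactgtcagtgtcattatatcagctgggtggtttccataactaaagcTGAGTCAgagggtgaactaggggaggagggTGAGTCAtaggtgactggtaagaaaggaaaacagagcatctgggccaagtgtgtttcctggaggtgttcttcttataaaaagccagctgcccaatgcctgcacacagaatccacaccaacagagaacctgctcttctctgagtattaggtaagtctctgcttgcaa
Hspa5 (chr2:34771840-34772139, plus strand): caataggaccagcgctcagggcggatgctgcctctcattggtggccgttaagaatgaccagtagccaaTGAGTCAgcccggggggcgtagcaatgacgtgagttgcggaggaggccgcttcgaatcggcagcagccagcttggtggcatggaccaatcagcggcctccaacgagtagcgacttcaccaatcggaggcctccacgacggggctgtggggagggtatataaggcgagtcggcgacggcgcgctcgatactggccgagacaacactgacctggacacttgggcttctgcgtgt
Rcan1 (chr16:92400029-92400328, minus strand): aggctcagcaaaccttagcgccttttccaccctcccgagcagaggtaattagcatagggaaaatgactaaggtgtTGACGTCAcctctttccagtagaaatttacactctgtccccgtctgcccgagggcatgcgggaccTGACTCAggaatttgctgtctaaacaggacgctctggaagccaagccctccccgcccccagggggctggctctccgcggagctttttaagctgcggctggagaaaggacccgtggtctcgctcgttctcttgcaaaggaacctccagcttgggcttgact
Klf6 (chr13:5861239-5861538, plus strand): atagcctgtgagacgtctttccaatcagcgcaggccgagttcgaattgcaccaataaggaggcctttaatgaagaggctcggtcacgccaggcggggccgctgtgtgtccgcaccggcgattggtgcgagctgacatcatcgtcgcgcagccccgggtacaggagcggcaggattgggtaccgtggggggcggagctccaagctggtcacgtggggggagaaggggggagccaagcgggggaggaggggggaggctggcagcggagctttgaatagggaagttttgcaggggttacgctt
The first bases of the matches lie 146 and 116 bases before the start in Sprr1a, 182 before it in Hspa5, and 175 (CRE) and 110 (AP-1) before it in Rcan1. AP-1 matches stood in 7.81% of 32851 promoter windows of this length and CRE matches in 1.79%. For genes tested here the shares were 6.12% and 2.60%, for the called genes higher after SNI 5.70% and 2.53% of 158 windows, and for those higher after SCI 4.44% and 4.44% of 45. The printed matches are a description of these letters, and binding was not measured.

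Of 30 ion channels of large sensory axons, Scn8a passed, lower after SNI than after SCI, and with all wells none passed. A negative difference was found in 18 of the 30 and a positive one in 12 (40.0%, against 48.6% of all genes). All 6 with an unadjusted p under 0.05 were negative (5.85% of all genes on the SCI side). The groups did not overlap for 4 of the 30, each higher after SCI (2.02% of all genes). The median difference was -0.23 (-0.35 with all wells), at -0.38 within the first set of mice and 0.02 within the second. Scn8a, which encodes the nodal sodium channel Nav1.6, was at 131, 179.6, 131 and 119.6 CPM after SNI and at 232, 261, 267 and 188 CPM after SCI. The highest SNI mouse stayed below the lowest SCI mouse, and the naive mice spanned both groups, from 26.1 to 399.7 CPM. The difference was -0.79 ± 0.19 (adjusted p = 0.0839; 0.74 with all wells). Against naive mice Scn8a differed by -0.37 after SNI and by 0.43 after SCI and neither passed. Kcna2, a juxtaparanodal potassium channel, was at 56.4, 174, 46.2 and 51.4 CPM after SNI and 247, 343, 289 and 211 CPM after SCI. SNI mouse 2 was high for its group but still below all SCI mice, and the difference was -1.87 ± 0.48 (adjusted p = 0.115). Its partner Kcna1 differed by -0.54 ± 0.24 (adjusted p = 0.355) and Kcns3, a modifier subunit, by -3.06 ± 1.31 (adjusted p = 0.34), both without overlap. Scn1a, a sodium channel, differed by -1.05 ± 0.35 (adjusted p = 0.24), with SCI mouse 4, at 225 CPM, inside the SNI range of 126 to 267 CPM.

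Markers of neuron identity gave no call. Among 21 genes of large-fibre neurons the median difference was -0.11 (0.11 with all wells), and at an unadjusted p under 0.05 the difference was positive for 2 genes and negative for 1. Ret, a receptor of GDNF family ligands, was at 285, 240.2, 455 and 250.4 CPM after SNI and 59.8, 238, 102 and 51 CPM after SCI. SCI mouse 2 lay just under the lowest SNI mouse, and the difference was 1.68 ± 0.62 (adjusted p = 0.285). Nefh, the heavy neurofilament, differed by -0.13 ± 0.22. Pcdh8 and Esrrg, a protocadherin and an orphan nuclear receptor, differed by 3.25 ± 1.15 and -1.79 ± 0.73 and overlapped. Nociceptor markers varied more between mice of a group than between groups. Their summed level was 593, 281, 1071 and 9357 CPM after SNI and 378, 431, 4523 and 14214 CPM after SCI. SNI mouse 4 and SCI mice 3 and 4 were high, and the rest low. An exact two-sided permutation test over the 70 regroupings gave p = 0.8, where the smallest p possible is 0.0286. Calcb, a CGRP gene, ranged from 155 to 232 CPM after SNI and from 70.2 to 1316 CPM after SCI. Leaving out also the wells with over 0.5% of reads on nociceptor markers, 1 of SNI and 3 of SCI at day 1, left 537 genes called, 164 of them among the 201. SCI mice 3 and 4 then kept 1 well each. In that fit the median difference over all genes was 0.20, against -0.01 before, so the whole comparison was shifted to the SNI side.

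Of 24 genes of cholesterol synthesis, Sqle and Ebp passed, both higher after SNI than after SCI, and with all wells none passed. A positive difference was found in 22 of the 24 (91.7%, against 48.6% of all genes). All 13 with an unadjusted p under 0.05 were positive (7.48% of all genes on the SNI side), while 11 did not reach that p. The groups did not overlap for 8, each higher after SNI (3.40% of all genes). The median difference of the 24 was 0.64, and 0.43 with all wells. Against naive mice the median was -0.17 after SNI and -0.89 after SCI, while over all genes it was 0.40 and 0.38, with the naive mice shared by both. Sqle, squalene epoxidase, was at 298, 150.3, 251 and 148 CPM after SNI and at 76.9, 60.1, 89.5 and 95.3 CPM after SCI. All SNI mice were above all SCI mice, and the naive median, 163 CPM, lay among the SNI mice. The difference was 1.38 ± 0.28 (adjusted p = 0.0479; 0.46 with all wells). Ebp, a sterol isomerase late in the pathway, was at 177, 109, 226 and 307 CPM against 40.9, 48.7, 63.6 and 132 CPM. SCI mouse 4 overlapped SNI mouse 2, and the difference was 1.57 ± 0.32 (adjusted p = 0.0479). Hsd17b7, which acts on sterol ketones, was at 178, 254, 204 and 245 CPM against 44.3, 35.0, 99.8 and 112 CPM and did not overlap, with a difference of 1.65 ± 0.41 that just missed the threshold (adjusted p = 0.102). Nsdhl, a decarboxylase of the pathway, differed by 0.65 ± 0.25 (adjusted p = 0.31).

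**Figure D3:**
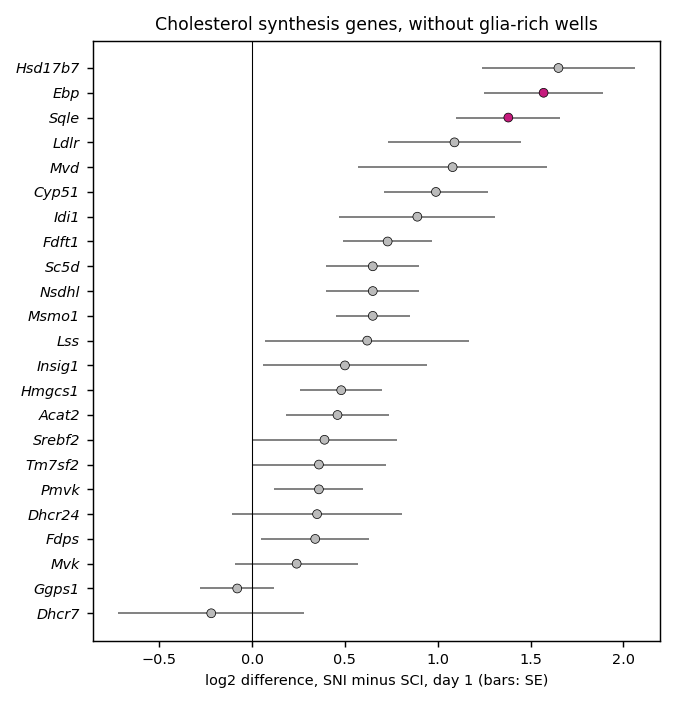
Difference between SNI and SCI at day 1 (log2 scale, horizontal axis, bars SE, 4 mice in each group) for 23 of the 24 genes of cholesterol synthesis without the glia-rich wells, ordered by size. Of the 23, 21 lie right of 0, and the coloured points mark Ebp and Sqle, which passed at an adjusted p under 0.1.

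Of 28 genes of fatty acid synthesis and activation, Acsl4 passed. In all, 23 had a positive difference and the median was 0.40 (0.25 with all wells), and at an unadjusted p under 0.05 the difference was positive for 4 and negative for 2. Acsl4, which activates long polyunsaturated fatty acids, was at 300.1, 207, 245 and 104 CPM after SNI and 89.7, 89.1, 64.5 and 62.4 CPM after SCI, with SNI mouse 4 nearest to the SCI mice. The difference was 1.45 ± 0.30 (adjusted p = 0.0492). Its relative Acsl1 was at 16.9, 12.4, 18.2 and 18.3 CPM against 26.3, 49.1, 49.8 and 26.9 CPM, and differed by -1.19 ± 0.32 (adjusted p = 0.13). Fasn, the fatty acid synthase, was at 37.8, 43.6, 35.3 and 39.1 CPM after SNI and at 24.7, 17.4, 19.1 and 9.61 CPM after SCI. The groups did not overlap, and the naive median, 42.6 CPM, lay within the range of the SNI mice. The difference was 1.14 ± 0.39 (adjusted p = 0.25) and only 0.35 ± 0.50 with all wells. Srebf1, the regulator of fatty acid synthesis, differed by 2.84 ± 0.82 with all wells and by 0.75 ± 0.76 without the glia-rich wells (adjusted p = 0.72).

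Of 31 genes of lipid droplets and fatty acid oxidation, Cidea passed. The difference at an unadjusted p under 0.05 was positive for 3 and negative for 5, and the median was -0.17 (-0.12 with all wells). Cidea, a lipid droplet protein, was at 4.95, 8.27, 0.428 and 3.99 CPM after SNI and at 15.6, 17.0, 81.9 and 129 CPM after SCI. No SNI mouse reached the SCI mice. The difference was -4.64 ± 1.03 (adjusted p = 0.0702), at -1.38 within the first set of mice and -6.07 within the second, and no gene differed between the sets by an adjusted p under 0.1, with 1272 at an unadjusted p under 0.05 in edgeR. Plin2, the droplet coat protein perilipin 2, was at 640.4, 587, 256 and 479.9 CPM after SNI and 29.4, 87.9, 89.3 and 99.0 CPM after SCI. All SNI mice were above all SCI mice, with a difference of 2.67 ± 0.67 (adjusted p = 0.102). Plin4, a related protein with the lowest p when all wells were used, rested in part on the glia-rich wells. It was at 0.0264, 0, 0.205 and 0.458 CPM after SNI (26 reads in all) and at 9.17, 1.45, 0.356 and 4.72 CPM after SCI. SCI mouse 3 lay inside the SNI range, and the difference of -5.20 ± 1.54 (adjusted p = 0.19) compares with -8.21 ± 1.32 with all wells. Among 44 subunits of the respiratory chain 38 had a negative difference, but it was small, with a median of -0.16 with and without the glia-rich wells and a range of -0.63 to 0.16. Ndufb9 and Ndufs3 of complex I had an unadjusted p under 0.05 and did not overlap, at -0.47 ± 0.18 and -0.63 ± 0.25, and no subunit passed the adjusted test.

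Stress genes gave calls in both directions. Tsc22d3, which encodes the glucocorticoid-induced leucine zipper, had the lowest p of the genes lower after SNI. It was at 420.3, 436, 299.8 and 284 CPM after SNI and at 790.0, 873, 906 and 848 CPM after SCI. The SCI mice lay within the naive range of 657 to 955 CPM and the SNI mice below it. The difference was -1.24 ± 0.19 (adjusted p = 0.0166; 0.18 with all wells). Against naive mice Tsc22d3 fell after SNI (-1.12, adjusted p = 0.00553), and the SCI difference from naive was 0.12. Tsc22d1, a gene of the same family, went the other way, at 1763, 1794, 1783 and 1528 CPM after SNI and 563, 660.2, 602 and 361 CPM after SCI. The 2 groups were far apart, with a naive median of 746 CPM and a difference of 1.68 ± 0.31 (adjusted p = 0.0372). The 19 glucocorticoid and systemic stress genes tested had a median difference of -0.24, with 3 genes at an unadjusted p under 0.05 in each direction. With all wells the median was -0.42, with 1 such gene on the SNI side and 5 on the SCI side. Without the glia-rich wells it was -0.92 within the first set of mice and 0.43 within the second. Sgk1 and Ddit4, induced by glucocorticoids, differed by -0.62 ± 0.54 and -2.02 ± 0.97 and overlapped.

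Hspa5 and Calr, chaperones of the endoplasmic reticulum, were higher after SNI. Of 29 genes of the unfolded protein and integrated stress responses, 7 had an unadjusted p under 0.05, each with a positive difference, and the median was 0.32 (0.45 with all wells). Hspa5, which encodes the chaperone BiP, was at 654, 442, 684 and 404 CPM after SNI and 255, 290.2, 305 and 244 CPM after SCI. No mouse overlapped, and the naive median of 390.0 CPM lay between the groups. The difference was 0.99 ± 0.20 (adjusted p = 0.0448; 0.46 with all wells). Calr, calreticulin, was at 372, 205, 469 and 310.3 CPM against 158, 190.1, 201 and 92.1 CPM, with SNI mouse 2 barely above the SCI mice, and differed by 1.08 ± 0.27 (adjusted p = 0.0956). Pdia6 and Xbp1, a disulphide isomerase and a transcription factor of the same response, differed by 0.92 ± 0.25 and 2.17 ± 0.62 and overlapped. Of 26 genes of the early response and of dissociation, 5 had an unadjusted p under 0.05, each with a positive difference, and Hsph1, a heat shock protein of the Hsp110 family, passed. It was at 141, 172, 205 and 126 CPM after SNI and 72.4, 98.5, 83.1 and 82.1 CPM after SCI, and the difference was 0.94 ± 0.23 (adjusted p = 0.0929). Ier3, an immediate early gene, differed by 1.36 ± 0.45 (adjusted p = 0.24). The median of this list was 0.54 here and 0.10 with all wells.

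**Figure D4:**
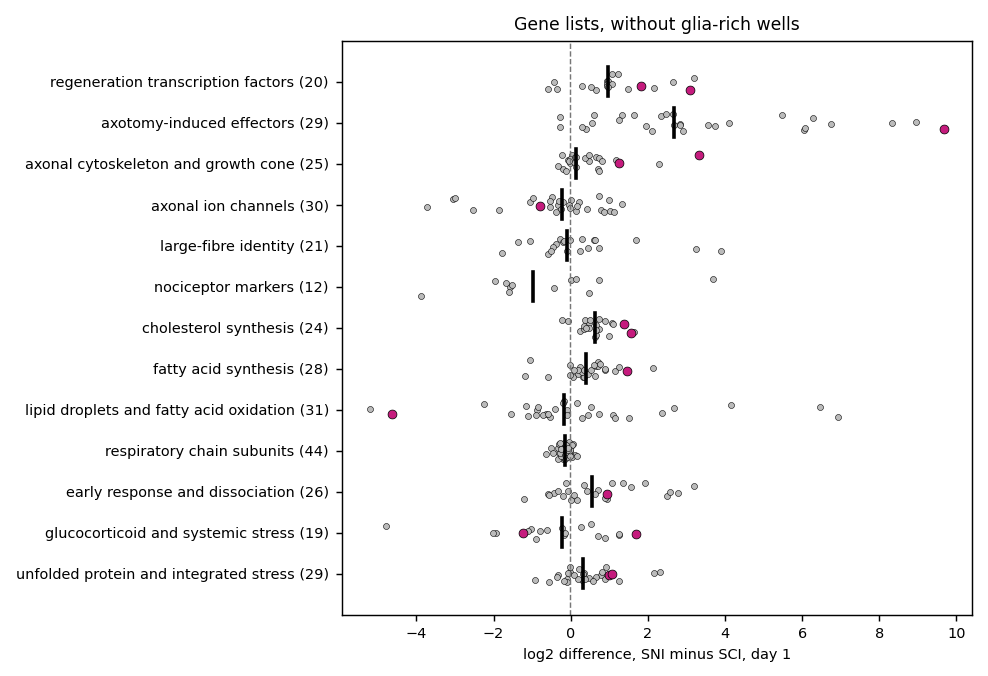
Difference between SNI and SCI at day 1 (log2 scale, horizontal axis) for each tested member of 13 gene lists without the glia-rich wells, with the number tested in parentheses. Black bars are list medians, the dashed line is the median of all genes at -0.01, and coloured points are the genes that passed at an adjusted p under 0.1. Axotomy-induced effectors lie furthest right, with a median of 2.68.

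The genes with the smallest p in each direction were mostly outside these lists. Azin1, which encodes the antizyme inhibitor of the polyamine pathway, was at 544, 497, 533 and 393 CPM after SNI and 155, 133, 202 and 119.7 CPM after SCI. The 2 groups were each narrow and far apart, and the naive median was 217. The difference was 1.69 ± 0.22 (adjusted p = 0.00878), and Azin1 also rose after SNI relative to naive mice (1.28, adjusted p = 0.00443). Crot, a peroxisomal carnitine acyltransferase, was at 385, 456, 579 and 368 CPM against 141, 163, 103 and 54.5 CPM. Its SCI mice lay in or near the naive range of 75.0 to 158 CPM, and the difference was 1.97 ± 0.27 (adjusted p = 0.00878). Ppp4r1, a regulatory subunit of protein phosphatase 4, was at 44.3, 53.4, 64.2 and 43.4 CPM against 16.2, 14.5, 14.4 and 17.2 CPM. The SCI mice were nearly alike, and the difference was 1.72 ± 0.24 (adjusted p = 0.00878).

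Golga7, a partner of a palmitoyltransferase, differed by 1.51 ± 0.21, Ypel5 by 1.21 ± 0.17, Eif1a, a translation initiation factor, by 1.42 ± 0.21, and Ipo5, a nuclear import receptor, by 1.15 ± 0.19, with adjusted p-values of 0.00878 to 0.0225. All 4 genes had every SNI mouse above every SCI mouse. Rnh1, the ribonuclease inhibitor, was at 492, 226, 1209 and 695 CPM after SNI and 54.9, 103, 109 and 124 CPM after SCI, so its spread was mostly among the SNI mice, and it differed by 2.71 ± 0.46 (adjusted p = 0.0274). Spns3, a transporter of the spinster family, was near absent after SCI, with 9 reads in the 4 mice, and was at 26.9, 9.60, 6.66 and 41.6 CPM after SNI. The naive mice were at 0.0501 CPM or less, and the difference was 8.84 ± 1.41 (adjusted p = 0.0225). Rcan1, a calcineurin inhibitor and one of the 5 genes with the smallest p higher after SNI with all wells, was at 199, 131, 63.9 and 137 CPM against 17.8, 13.4, 14.4 and 32.6 CPM. The lowest SNI mouse was still clear of the SCI mice, and the difference was 2.57 ± 0.50 (adjusted p = 0.0435; 0.145 with all wells).

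On the other side, 10 genes led those lower after SNI than after SCI, Tsc22d3 first. Crebrf, a regulator of the CREB3 family, was at 11, 13.9, 12.2 and 23.0 CPM after SNI and 45.6, 57.6, 61.2 and 40.7 CPM after SCI. The naive median of 24.1 CPM lay between the groups, and the difference was -1.80 ± 0.28 (adjusted p = 0.0175). Fam81a was at 57.5, 87.1, 57.1 and 40.3 CPM against 191, 251, 285 and 248 CPM, with the naive median of 226 CPM among the SCI mice, and differed by -2.05 ± 0.42 (adjusted p = 0.0492). Fry, a large scaffold protein, was at 38.6, 66.6, 30.6 and 29.3 CPM against 156, 141, 93.3 and 96.1 CPM and differed by -1.57 ± 0.30 (adjusted p = 0.0372). Fry fell after SNI relative to naive mice (-1.86, adjusted p = 0.00472), and its SCI difference from naive was -0.30. Usp20, a deubiquitinase, differed by -1.28 ± 0.24, Fchsd2, an endocytic adaptor, by -1.51 ± 0.30, Ampd2, an AMP deaminase, by -1.76 ± 0.36, Fam126b by -1.63 ± 0.34 and Gmpr, a GMP reductase, by -1.53 ± 0.32, with adjusted p-values of 0.0349 to 0.0573 and no overlap between the groups. Evc2, a protein of the ciliary base, was at 1.82, 0.872, 0.167 and 0.818 CPM after SNI and 14.3, 16.0, 2.05 and 17.0 CPM after SCI. SCI mouse 3 was low for its group but above the SNI mice, and the difference was -3.74 ± 0.72 (adjusted p = 0.04; 0.61 with all wells, where the groups overlapped).

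Markers of other cells were uneven. Of 12 macrophage genes, 9 were tested, and Cx3cr1 and Mrc1 had no read in any SCI mouse. Their summed level was 6.83, 19.8, 1285 and 180.4 CPM after SNI and 4.07, 4.43, 19.7 and 20.5 CPM after SCI, and with all wells it reached 10591 CPM in SNI mouse 3. SNI mouse 3 carried most of it. The median difference over the 9 members was 3.86, but no member passed and the exact two-sided permutation test of the sum gave p = 0.14. Fibroblast and endothelial genes were also highest in SNI mouse 3, at 1071 CPM against 12.8 to 123 CPM in the other 7 mice. Glia genes summed to 3024 to 11229 CPM after SNI and 4024 to 7714 CPM after SCI, with SNI mouse 3 again the highest (exact permutation p = 0.69), and neuron genes to 28896 to 35320.2 and 27531 to 32749 CPM. Blood markers stayed at 5.72 CPM or less in every mouse, and of the 6 blood genes tested 2 had no read in any SNI mouse and 3 none in any SCI mouse. The 201 genes had the same sign without SNI mouse 3, where 22 genes were called. The remaining mice were among those the genes were picked from, so this sign was largely set by the picking. The part of these cells in the differences was not tested.

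Set beside naive mice, the 161 genes higher after SNI had a median difference from naive of 1.39 after SNI and -0.27 after SCI. The 40 lower genes had -1.25 and 0.32, and all genes tested had 0.40 and 0.38. The 161 and the 40 were picked for a gap between SNI and SCI, so the gap between their 2 medians was set by the picking. The same tests called 1848 genes for SNI against naive and 49 for SCI against naive, with the naive mice shared by both. With all wells these counts were 161 and 4. The mice of day 3 are other animals and offer the same contrast. Mouse 3 of each injury at day 3 had only glia-rich wells and dropped out, which left 3 against 3. At day 3 the test of SNI against SCI called no gene, with 1679 genes at an unadjusted p under 0.05, 4.14% of genes higher after SNI and 3.28% higher after SCI, and with all wells it also called none, with 1990 at an unadjusted p under 0.05. Of the 161 genes, 145 had the same sign at day 3 and 65 also had an unadjusted p under 0.05, and of the 40 genes, 36 and 18. Over all genes tested, 51.8% were higher after SNI at day 3. The median difference of the 161 was 1.57 at day 1 and 0.69 at day 3, and that of the 40 was -1.62 and -0.75. These genes were picked for a large difference at day 1, so smaller medians at day 3 cannot by themselves show a change between days. Klf6 and Ipo5 were as far apart at day 3 as at day 1, at 1.74 and 1.30. Ypel5, Hspa5 and Hsph1 were near 0 at day 3, at -0.01, -0.14 and -0.03. The difference between the days was itself tested as an interaction, which called no gene (0% of genes) with or without the glia-rich wells, at 1493 genes with an unadjusted p under 0.05 without them and 1786 with all wells. It had an unadjusted p under 0.05 for 71 of the 161 genes and 15 of the 40, which were picked for a large difference at day 1.

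**Figure D5:**
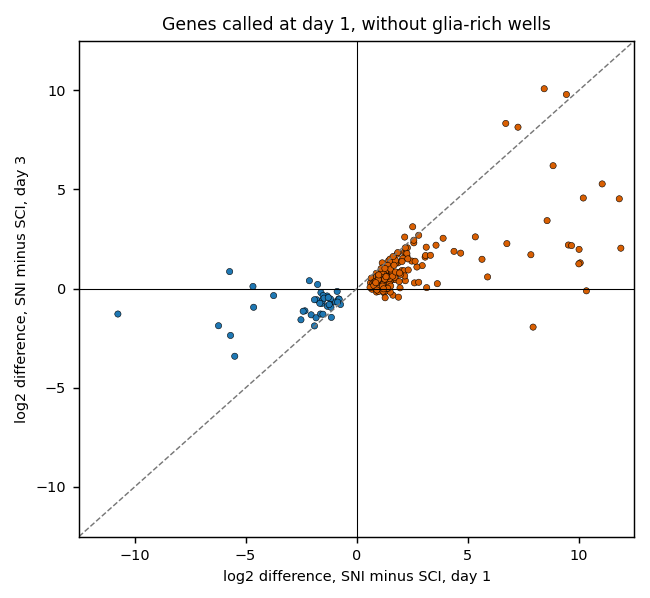
Difference between SNI and SCI at day 1 (horizontal axis, log2 scale) against the same difference at day 3 (vertical axis, log2 scale) for the 201 genes called at day 1 without the glia-rich wells, with orange for higher and blue for lower after SNI. Of these, 145 of 161 orange and 36 of 40 blue points have the same sign on both days. At day 3, 192 of the 201 are nearer to 0 than at day 1, the day whose differences they were picked by. The dashed line marks equal differences.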

How the data were processed

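RNA of about 100 sorted YFP+ cells per well was amplified with the SMARTer Ultra Low kit and sequenced. The authors trimmed the reads with Cutadapt, aligned them with STAR 2.5.3a to mm10 and counted them per gene with HTSeq 0.6.1, per the labels. The deposited values are whole-number counts for 53379 genes without normalization. The strand setting of the counting is not given in the sources used here, so a gene and an overlapping antisense gene cannot be told apart. The last 5 lines of each list name no gene and were left out. They held 46.8% to 66.9% of the reads of a day 1 well, and reads aligned to several places made up 38.2% to 52.3%.

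Wells were summed per mouse. A gene was tested where some mouse had 20 reads or more, in edgeR 4.0.16 (R 4.3.3, limma 3.58.1) by its quasi-likelihood test, with TMM scaling and 2 RUVr factors. These were estimated from deviance residuals centred per gene, over all 22 sorted mice, or 20 mice with a well left after the glia-rich wells were removed. The study's methods remove outlier samples without naming them in the sources used here, so all 4 mice per group were kept. A gene was called at a Benjamini-Hochberg adjusted p under 0.1. The tests set each difference against the spread between mice within groups. That spread was estimated over all mice of the fit, naive and day 3 mice among them, with the 2 factors in the model. The standard error of a difference is its size divided by the square root of the F statistic, so it was not estimated apart from the test. DESeq2 1.42.0 was an alternative. On simulated counts with known changes the fit returned the size of the changes, with few false calls where no hidden factor was present and more false than true calls where a hidden factor ran through many genes. The deposited tables of the authors' own comparisons were not used.

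Named genes were the 10 of smallest p in each direction among called, non-overlapping genes with a full symbol (the 5 of smallest unadjusted p where fewer than 5 qualified), members of 18 lists of 382 genes, and genes known from the study. The comparison, the genes and the lists were chosen with earlier results of these data known. Summed marker levels were compared as log2(CPM + 1) by an exact two-sided permutation test. Tables and figures were made with Python 3.11.15, and promoter sequences are from RefSeq. Some genes tested and counted in the lists are not reported here by name. No pair of wells held identical counts.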

Additional observations from a re-analysis of the deposited data

Results flagged for a closer look

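Of 166 groups of 4 mice examined, 7 held a mouse far from the other 3 by Dixon's criterion, which chance sets off in about 1 in 20 groups. All values are CPM without the glia-rich wells. Kcna2 in SNI mouse 2 stood at 174, above the other SNI mice. Scn1a in SCI mouse 4 stood at 225, below the other SCI mice. Plin2 in SCI mouse 1 stood at 29.4 and Fchsd2 in the same mouse at 26.2, both low for the group. Tsc22d1 in SNI mouse 4 stood at 1528, low beside 3 mice that were close together. Golga7 in SNI mouse 3 stood at 131, above the other SNI mice, and Evc2 in SCI mouse 3 at 2.05, below the other SCI mice. The cause of these values was not tested.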

How the results depend on the processing

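With all wells, where no gene was called, the count rose to 1109 with DESeq2, 16 with wells as libraries and the mouse as a random block, 7 with the 8 mice alone, 7 with 2 RUVr factors and the set of mice as a covariate (added after seeing the data), 2 with 1 RUVr factor and 1 with residuals not centred, and it was 0 to 1 when 1 mouse was left out. Without the glia-rich wells it was 201. From there it went to 1483 with DESeq2 (200 of the 201 among them), 537 without the nociceptor-rich wells, 359 with wells as libraries and 303 with RUVr factors and the set, and down to 84 with every gene of at least 1 read, 69 at an adjusted p under 0.05, 67 with the 8 mice alone, 20 with 1 RUVr factor, 13 with the set in place of the factors and 0 with no factor. The median difference over all genes was 0.20 without the nociceptor-rich wells and 0.27 with wells as libraries, against -0.01 in the fit with 201 calls. Leaving out 1 mouse gave 10 to 233. These alternatives of the fit without glia-rich wells, and the wells left out for nociceptor markers, were chosen after seeing the data. In each of these fits every one of the 201 genes that was tested kept its sign, except that 1 gene turned without the nociceptor-rich wells. The fits used mice that the genes were picked from, so the kept signs are no separate support. The cause of the shifts in the count was not tested. Within the first set of mice 3 genes were called and within the second 8, and no gene differed between the sets.

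The SNI and SCI mice share replicate numbers but no stated litter or day. With the replicate block the count without glia-rich wells was 4 in the place of the factors and 18 with the 8 mice alone, and with all wells 0 and 4. Same-numbered mice correlated at 0.064, 0.136, 0.045 and 0.293, and 1 of 4 SNI mice correlated best with the SCI mouse of its own number, and with all wells the values were 0.06, 0.114, 0.109 and 0.37 with 2 of 4. In neither case were all 4 above 0.1, so the numbers were not taken to pair the mice.

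Among named genes, measured against the fit with all wells, Creb1 turned to 0.30 without the glia-rich wells, to 0.01 without factors and to 0.77 in the second set, and ranged from -0.38 to 0.34 with 1 mouse left out. Mmp16 turned to -0.65 in the second set and ranged from -0.01 to 3.19. Depth limits genes such as Spns3 and Sprr1a after SCI and Plin4 after SNI, where a group had few reads.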

Other observations

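Other genes called without the glia-rich wells are given here one by one. They were picked after their values were seen, the other genes of the same roles were not counted, and nothing is said of any group of genes. Odc1, the rate-limiting enzyme of polyamine synthesis and the enzyme that Azin1 protects, differed by 2.04 ± 0.42 between SNI and SCI on the log2 scale (mean 36.6 against 8.87 CPM, adjusted p = 0.0492). Srxn1, sulfiredoxin, differed by 1.62 ± 0.35 (517 against 168 CPM, adjusted p = 0.0608), Txnrd1, a thioredoxin reductase, by 1.26 ± 0.27 and Prdx6, a peroxiredoxin, by 1.18 ± 0.28. The laminin receptor subunit Itga7 differed by 2.28 ± 0.41 (265 against 54.9 CPM, adjusted p = 0.0349) and its partner Itgb1 by 1.19 ± 0.25 (235 against 102 CPM, adjusted p = 0.0573).

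Rac1, a small GTPase that acts on actin, differed by 0.99 ± 0.24, and the GTPases Rhoq, Rhoc and Rras2 by 1.85 ± 0.32, 2.48 ± 0.58 and 3.08 ± 0.70. Myo10, a myosin of filopodia, differed by 3.89 ± 0.71 (33.1 against 2.39 CPM, adjusted p = 0.0349). Nop58, a nucleolar protein, differed by 1.29 ± 0.26, and Eif6, which binds the large ribosomal subunit, by 0.79 ± 0.19. Lower after SNI were Nfia, a transcription factor (-1.14 ± 0.28, 267 against 578 CPM), Satb1, a chromatin organiser (-1.21 ± 0.30), Kcnj3, an inwardly rectifying potassium channel (-1.90 ± 0.44), and Chga, a granule protein (-0.73 ± 0.18). With all wells each of these genes had the same sign and none passed in edgeR's quasi-likelihood test.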
